A study of Mus musculus with 3 samples.

Results

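The genes described here encode the classical protein tyrosine phosphatases, the enzyme family to which the leukocyte surface protein CD45 belongs. Members were taken by name: protein-coding genes of the deposited count table whose symbol is Ptpr with 1 further letter and optionally a digit, or Ptpn with a number. The rule used no measured value and found 37 of 48709 genes. Ptprv also has a matching name, but the table lists it as a processed transcript and it was therefore left out.

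Protein tyrosine phosphatases remove phosphate groups from tyrosine residues and so counter tyrosine kinases. The Ptpr genes mostly encode receptors that cross the plasma membrane, with an outer part that resembles cell adhesion molecules, whereas the Ptpn genes encode enzymes inside the cell that are steered to their substrates by SH2, PDZ, FERM or proline-rich regions. In the lung, CD45 is carried by leukocytes of every kind, VE-PTP (Ptprb) is a phosphatase of blood vessel endothelium, and many of the cytosolic enzymes are found in most cell types.

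Values came from total RNA sequencing of 3 libraries of sorted mouse lung cells, all of the single group WT, labelled as smooth muscle cells. Every mouse of the group carried a CreERT2 recombinase driven by smooth muscle actin and the red fluorescent reporter tdTomato. From 8 weeks of age they were given tamoxifen, the drug that switches CreERT2 on, at 75 mg/kg by intraperitoneal injection on each of 10 days, and were killed 2 months afterwards. Mice without the transgenes or without tamoxifen were not analysed here, so the libraries have no control group and all values are levels within WT. Smooth muscle actin is known to be made by myofibroblasts and some pericytes as well as by smooth muscle, no label or header names the marker or gate of the sort, and the tdTomato transcript was not analysed. Whether separate mice gave the 3 libraries is not in the labels, so p-values measure the spread between these libraries, which may be technical.

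The libraries held 16877297 to 18896263 counts assigned to genes. A count of 0 allowed a level of at most 0.159, 0.163 and 0.178 CPM, the counts of a gene for every 1000000 counts in its library, in libraries 1, 2 and 3, at 3 counts per library and for counting error alone. Genes that the table calls microRNAs took 15.1%, 12.9% and 8.36% of the counts, which lowers the CPM of all other genes in proportion. The label was set against markers of lung cell types. Of 12 smooth muscle markers 6 reached a mean of 10 CPM and 0 reached 100, with summed levels of 149, 199 and 166 CPM. Mylk was the highest of them, followed by Myh11 (mean 24.3 CPM) and Tagln (18.9 CPM). Cnn1, a marker of differentiated smooth muscle, was the lowest at 0.226 CPM and had no count in library 1. Of 18 lymphocyte markers 18 reached 10 CPM, and their sums were 1824, 2023 and 2021 CPM. Libraries also differed in their sums for endothelium (982, 552 and 689 CPM), myeloid cells (978, 360 and 464 CPM), alveolar epithelium (2331, 550.1 and 655 CPM), airway epithelium (13836, 2824 and 7941 CPM) and fibroblasts (876, 1865 and 1863 CPM). Most of the myeloid sum was the single gene Lyz2 (704, 189 and 235 CPM). Library 1 was the highest of the 3 for 11 of 12 endothelial, 9 of 14 myeloid, 8 of 11 alveolar and 9 of 10 airway markers, and for 0 of 10 fibroblast markers. Sums for pericytes were 66.2, 123 and 93.4 CPM, for red cells and platelets 608, 2729 and 945 CPM, and for nerve and Schwann cells 107, 97.0 and 78.3 CPM. What part these other cell types have in the levels below was not tested, except where a value is given beside a result. In bulk samples, fewer cells of a type and less RNA per cell cannot be told apart.

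The family as a whole was well represented. Of the 37 members, 29 (78.4%) had a mean level of at least 1 CPM, compared with 59.4% of the 22005 nuclear protein-coding genes. At least 10 CPM was reached by 25 members (67.6%), against 35.8% of those genes, and at least 100 CPM by 6 members (16.2%), against 5.89%. The median over members was 4.65, 4.50 and 4.70 log2(CPM + 1) in libraries 1, 2 and 3, which averages 4.62 ± 0.10 (SD, n = 3), against 2.00 ± 0.08 for the nuclear protein-coding genes. Members are long genes, with a median of 7499 bases of exon against 3497, and CPM counts more reads for longer transcripts, so these shares do not compare transcript numbers. A count was found for 34, 34 and 36 members in the 3 libraries. All members are shown by library in the plot of levels grouped by role.

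**Figure D1:**
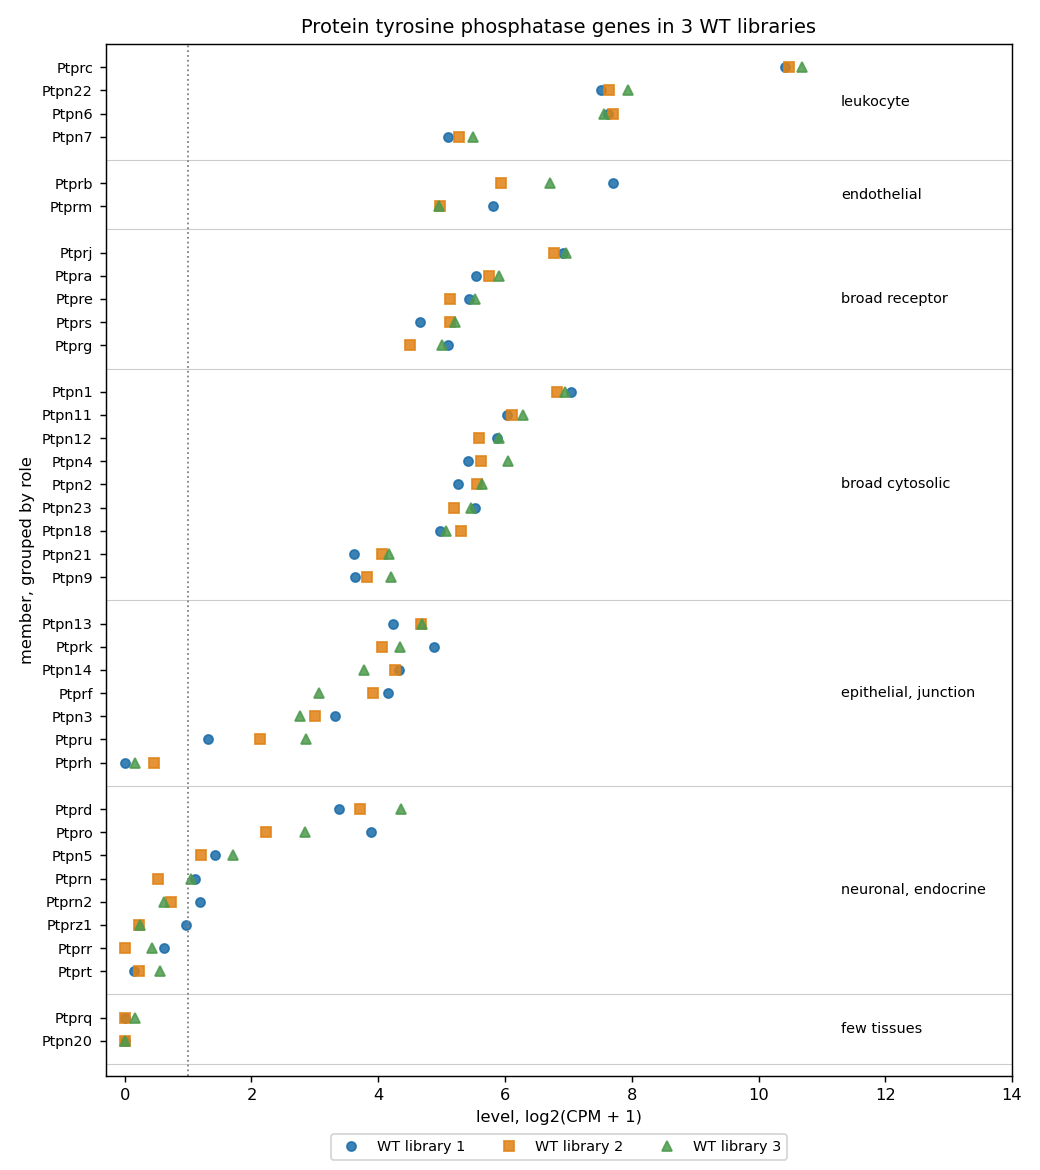
Level of each of the 37 members as log2(CPM + 1) in WT libraries 1, 2 and 3 (circle, square, triangle), grouped by the role of the gene; the dotted line marks 1 CPM. Ptprc stands above all other members in each library, and the symbols lie far apart for Ptprb, Ptpro and Ptpru, whose highest library was 3.44, 3.73 and 4.24 times their lowest.

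The phosphatases of leukocytes were the leading members. Ptprc (ENSMUSG00000026395, chromosome 1, 138062861 to 138175708, minus strand), the receptor CD45 that removes the inhibitory phosphate of Src family kinases, had 25704, 26245 and 27828 counts in libraries 1, 2 and 3. These correspond to 1360.3, 1429.8 and 1648.8 CPM, with a mean of 1479.6 ± 151 CPM (SD, n = 3). Library 3 was the highest and library 1 the lowest, and the 2 differed by 1.21-fold. Of all counts on members, Ptprc took 47.7% (95% Wilson interval 47.3% to 48.1%), 52.1% (51.7% to 52.5%) and 52.4% (52.0% to 52.8%), intervals that cover counting error only. It took 0.136%, 0.143% and 0.165% of all counts of the libraries. Per kilobase of exon its level was 80.8 ± 8.22 CPM, at rank 242 of the 22005 nuclear protein-coding genes, and its share of the members' summed level per kilobase of exon was 25.0 ± 1.56%.

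That share depends on the length used. The exons of Ptprc, joined over all annotated transcripts, cover 18313 bases, whereas its coding length is 3879 bases. Per kilobase of coding sequence Ptprc had a mean of 381 CPM and 38.4 ± 1.53% of the members' sum, and with no correction for length 50.7 ± 2.64%. By mean it was the first of the 37 members on each of the 3 scales.

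Ptpn6 (ENSMUSG00000004266, chromosome 6, 124720707 to 124738714, minus strand), the SH2 domain phosphatase SHP-1 that inhibitory receptors recruit, had 196, 208 and 189 CPM. Scaled by library totals, the highest library was 1.10 times the lowest, and with TMM library sizes 1.20 times. Ptpn6 differed between libraries beyond counting error in the test described below. Per kilobase of exon Ptpn6 had 70.5 ± 3.53 CPM, and its range over libraries overlapped that of Ptprc, although Ptprc was the higher of the 2 within each of the 3 libraries. Ptpn22 (ENSMUSG00000027843, chromosome 3, 103859795 to 103912247, plus strand), the lymphoid PEST phosphatase that pairs with the kinase Csk and dampens antigen receptor signals, had 182, 199 and 245 CPM. Library 3 was the highest here too. Its level of 30.8 ± 4.81 CPM per kilobase of exon lay below that of Ptpn6 with no overlap between libraries, but per kilobase of coding sequence Ptpn6 was the higher in 2 of 3 libraries. Ptpn7 (ENSMUSG00000031506, chromosome 1, 135132700 to 135145317, plus strand), a phosphatase of MAP kinases in blood cells, was lower, with 33.4, 37.8 and 43.9 CPM, and again library 3 was the highest. Per kilobase it had 6.29 ± 0.865 CPM of exon and 35.6 CPM of coding sequence, which put it in place 11 of the members by exon length and in place 6 by coding length.

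Some of the counts near these genes belong to other listed genes. A130071D04Rik, a locus of uncertain type on the same strand inside Ptprc that shares no exon base with it, had 46.8 ± 6.35 CPM. Within Ptpn22, Gm43065 had 28.0 ± 2.67 CPM and Gm15472 12.7 ± 3.27 CPM, both listed as sense intronic. The opposite-strand gene Gm20531 shares 6.96% of the exon bases of Ptpn6 and had 0.815 CPM. Of the 37 members, 13 share exon bases with another gene, 10.96% at most (Ptprr), and no source used here states how reads were assigned by strand.

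The catalytic signature of the family is a loop that starts with histidine and cysteine, in which the cysteine carries the phosphate during the reaction. It was located in the longest complete coding frame of each member as codons that read His, Cys, any, any, Gly, any, Gly, Arg, and is printed for members at both ends of the level scale to show what they have in common. The sequences are of GENCODE M21 transcripts (GRCm38), on the coding strand, with the cysteine codon in capitals.
Ptprc (chromosome 1, cysteine codon 842): cacTGCagtgctggtgttgggcgt
Ptpn6 (chromosome 6, cysteine codon 455): catTGCagcgctggcatcggccgc
Ptpn22 (chromosome 3, cysteine codon 227): cacTGCagtgccggctgcggaagg
Ptpn7 (chromosome 1, cysteine codon 290): cacTGCagtgcagggatcggccgg
Ptprb (chromosome 10, cysteine codon 2192): cacTGCagcgctggtgtgggcaga
Ptpre (chromosome 7, cysteine codon 354): cacTGTagcgcgggcgtgggtcgg
Ptprn (chromosome 1, cysteine codon 911): cacTGCagtgacggtgcagggagg
Ptprn2 (chromosome 12, cysteine codon 931): catTGCagtgacggcgccggcagg
Ptpn20 (chromosome 14, cysteine codon 359): cacTGCagtgctggtgtaggccga

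A signature was found once in 28 members and more than once in 9, all of them receptors (Ptpra, Ptprd, Ptpre, Ptprf, Ptprk, Ptprm, Ptprs, Ptprt and Ptpru). The search counts this exact pattern only. A member with 1 signature, such as Ptprc, may hold a further phosphatase domain whose loop differs from it. Over the first signatures of 35 other members, 15 to 22 of the 24 bases were identical to those of Ptprc, with a median of 19, and the signature of Ptpn2 was not compared. The cysteine codon was TGC in 35 of these 36 first signatures and TGT in Ptpre. Ptpn20, with no count in any library, shares 21 bases with Ptprc, and Ptpn22, the second member by CPM, shares 16. The lowest identity, 15 bases, was that of Ptprn2, a dense-core vesicle protein known to lack tyrosine phosphatase activity. Its relative Ptprn, also a vesicle protein, shares 18 bases, as Ptpn7 does.

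Promoter windows of RefSeq (GRCm38.p6, 250 bases before the start and 50 after it) are shown for Ptprc and Ptpn22, the first 2 members by CPM, whose levels were both highest in library 3. They were searched on both strands for GAGGAA, a core of sites of the leukocyte factor PU.1, and the match is in capitals.
Ptprc (chr1:138175256-138175555, minus strand): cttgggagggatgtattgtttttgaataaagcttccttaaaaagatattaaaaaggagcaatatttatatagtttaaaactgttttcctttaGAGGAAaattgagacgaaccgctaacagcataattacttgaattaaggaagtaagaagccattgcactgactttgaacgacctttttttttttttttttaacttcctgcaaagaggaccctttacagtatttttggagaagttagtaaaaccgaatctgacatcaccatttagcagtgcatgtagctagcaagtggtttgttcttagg
Ptpn22 (chr3:103859545-103859844, plus strand): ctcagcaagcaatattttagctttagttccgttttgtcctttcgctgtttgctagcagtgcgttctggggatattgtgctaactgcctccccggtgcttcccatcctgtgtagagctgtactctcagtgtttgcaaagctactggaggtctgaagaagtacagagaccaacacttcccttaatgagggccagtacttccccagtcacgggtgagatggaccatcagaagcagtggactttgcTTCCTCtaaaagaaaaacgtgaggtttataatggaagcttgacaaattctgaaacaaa
The match begins at base -158 in Ptprc, and at base -8 in Ptpn22 as TTCCTC, the same letters on the other strand. The Ptprc window follows a RefSeq start that lies 403 bases inside the deposited gene. Ptpn7 has a match at base -16, and the Ptpn6 window has none. A window was found for 32 members, with 1 window a gene, the nearest to the deposited gene start. Of these, 14 (43.8%) hold the letters, against 28.3% of all 32851 windows. Those windows were not reduced to 1 a gene, so the 2 percentages cover unlike sets. A match is not evidence of a bound site.

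Genes that work with these enzymes were also present, here on the CPM scale. Of 15 genes listed as Src family kinases or genes that signal with them, 14 reached a mean of 10 CPM. The list was led by Syk at 360 ± 96.1 CPM, Fyn at 200.4 ± 6.93 CPM and the B cell receptor chain Cd79a at 173 ± 59.9 CPM. Src was lowest at 5.52 ± 0.813 CPM. Syk and Cd79a are not Src family kinases, and Fyn was the highest of those listed. Lck, the T cell kinase that CD45 acts on, had 163 ± 21.5 CPM, and Ptprcap, the CD45-associated protein, 79.4 ± 1.98 CPM. Of 18 adaptors and inhibitory receptors of SHP-1 and SHP-2, 16 reached 10 CPM, with Pecam1 (206 ± 29.2 CPM), Cd22 (100.4 ± 36.8 CPM) and Btla (81.0 ± 33.3 CPM) the highest and Pdcd1 the lowest at 3.33 ± 1.74 CPM. Of 6 partners of the PEST phosphatases 5 did, led by the kinase Ptk2b (197 ± 13.5 CPM), Wipf1 (177 ± 11.0 CPM) and Csk (149 ± 10.5 CPM), and Pstpip2 had 1.67 ± 0.646 CPM. Other tyrosine phosphatase genes outside the family names included Ptp4a2 (296 ± 25.8 CPM) and Ptp4a1 (69.8 ± 9.65 CPM), and 8 of the 14 that matched a gene reached 10 CPM. The lowest of them was Eya4 at 0.188 ± 0.0977 CPM.

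The leukocyte members were also set against the markers of lymphocytes. As a percentage of the summed lymphocyte markers, Ptprc had 74.6%, 70.7% and 81.6%, Ptpn22 9.98%, 9.86% and 12.1%, Ptpn6 10.7%, 10.3% and 9.34%, and Ptpn7 1.83%, 1.87% and 2.17%. Library 3 had the highest percentage for Ptprc, Ptpn22 and Ptpn7 and the lowest for Ptpn6.

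Both endothelial phosphatases were highest in library 1. Ptprb (ENSMUSG00000020154, chromosome 10, 116301374 to 116389538, plus strand), which dephosphorylates the angiopoietin receptor Tie2 and VE-cadherin, had 3918, 1107 and 1759 counts, or 207, 60.3 and 104 CPM. Library 1 was 3.44 times library 2. Ptprm (ENSMUSG00000033278, chromosome 17, 66666848 to 67354459, minus strand), an adhesion receptor that binds its own kind on neighbouring cells, had 54.9, 30.3 and 30.2 CPM, and library 1 was 1.82 times library 3, with libraries 2 and 3 close together. Both genes differed between libraries beyond counting error in the test described below. Among the 12 endothelial markers 11 were also highest in library 1, and Kdr was highest in library 3. The sum of the 12 was 982, 552 and 689 CPM. Of that sum Ptprb was 21.1%, 10.9% and 15.1%, and Ptprm 5.60%, 5.49% and 4.39%. The percentage of Ptprb still differed by 1.93-fold between libraries 1 and 2, and that of Ptprm by 1.28-fold between libraries 1 and 3.

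Among the partners of Ptprb, Cdh5, which encodes VE-cadherin, had 245, 122 and 160 CPM, and Tek, the gene of Tie2, had 59.2, 20.3 and 29.4 CPM. Library 1 was the highest and library 2 the lowest for both, as for Ptprb. Only these 2 of the 6 listed partners were highest in library 1, and both are also among the endothelial markers above. Kdr was highest in library 3 (110, 73.0 and 113 CPM), and Ctnnb1 was lowest in library 1 (111, 138 and 157 CPM). The ligand Angpt1 was lowest in library 1, with 2.75, 7.08 and 7.82 CPM. Of the 6 genes in that list, 4 reached 10 CPM, with Ctnnb1 at 136 ± 23.4 CPM and Kdr at 98.7 ± 22.3 CPM after Cdh5, and Angpt1 the lowest at 5.89 ± 2.74 CPM. Endothelial levels of the 2 members and the markers are set beside those of the leukocyte members in the plot of levels relative to each gene's mean.

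**Figure D2:**
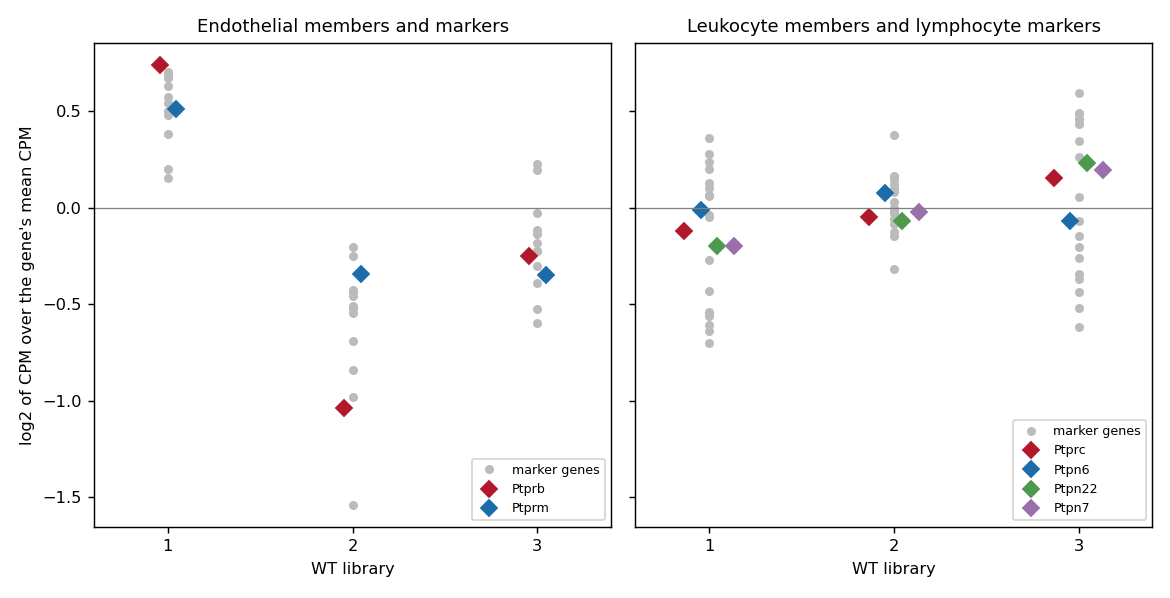
CPM in each WT library divided by the gene's mean over the 3 libraries, on a log2 scale, for endothelial members and 12 endothelial markers (left) and for leukocyte members and 18 lymphocyte markers (right); grey points are markers and coloured diamonds are members. Ptprb and Ptprm lie above their means in library 1 with every endothelial marker, whereas the 4 leukocyte members spread less and the lymphocyte markers fall on both sides of their means in each library.

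The broadly expressed cytosolic phosphatases were the group with the second largest summed level, over 9 genes. Their median was 5.54 ± 0.11 log2(CPM + 1), against 6.02 ± 0.67 for the 2 endothelial genes. All 9 of them reached 10 CPM. Ptpn1 (ENSMUSG00000027540, chromosome 2, 167932057 to 167979385, plus strand), the insulin and leptin receptor phosphatase PTP1B of the endoplasmic reticulum, had 131, 113 and 122 CPM. Its 22.1 ± 1.69 CPM per kilobase of exon did not overlap those of Ptpn22 above it or of Ptpn12 below it, but by coding length Ptpn1 was above Ptpn22 in 2 of 3 libraries. Ptpn2, the relative of PTP1B that acts on JAK kinases and STAT factors, had 37.2, 45.9 and 49.0 CPM. Ptpn11, the SHP-2 phosphatase of the RAS and MAP kinase pathway, was among the steadiest members with 64.6, 68.5 and 77.1 CPM, and the differences were within what library size and counting error give (adjusted p = 0.38).

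Ptpn12, the PEST phosphatase of focal adhesion proteins, had 57.7, 47.0 and 58.8 CPM, and library 2 was the lowest. Ptpn4, a FERM and PDZ domain enzyme, had 41.9, 48.2 and 65.4 CPM, 1.56-fold higher in library 3 than in library 1. Ptpn23, an endosomal sorting protein, had 45.0, 35.7 and 43.0 CPM, and Ptpn18, another PEST enzyme, had 30.4, 38.4 and 32.7 CPM. Library 2 was the lowest for Ptpn23 and the highest for Ptpn18. The FERM domain enzyme Ptpn21 had 11.2, 15.7 and 17.1 CPM, and Ptpn9, a phosphatase of secretory vesicles, had 11.4, 13.2 and 17.4 CPM. Both were lowest in library 1.

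All 5 broadly expressed receptors reached 10 CPM as well. Ptprj (ENSMUSG00000025314, chromosome 2, 90429754 to 90580647, minus strand), the receptor CD148 that can activate Src family kinases, was the highest with 120, 108 and 123 CPM, and its highest library was 1.14 times its lowest. Of its 50-base words, 9.65% occur in transcripts of other genes, mostly Gm13768 and Gm13767, so part of its level is uncertain. Ptpra, which activates Src by removing its inhibitory phosphate, had 45.8, 52.8 and 59.1 CPM, and its close relative Ptpre had 42.2, 34.3 and 45.0 CPM. Library 1 was the lowest for Ptpra and library 2 for Ptpre. Ptprs, a receptor for heparan sulfate and chondroitin sulfate chains, had 24.2, 34.1 and 35.9 CPM. Ptprg, whose outer part resembles carbonic anhydrase, had 33.5, 21.7 and 31.1 CPM, with library 2 the lowest.

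Epithelial and junction phosphatases were lower. Of 7 members, 6 reached 1 CPM and 4 reached 10 CPM. Ptpn13, a large scaffold with several PDZ domains, had 17.9, 24.6 and 24.9 CPM. Ptprk, a homophilic adhesion receptor, had 28.3, 15.7 and 19.3 CPM, with library 1 the highest. Ptpn14, a regulator of the YAP pathway, had 19.2, 18.2 and 12.7 CPM, and Ptprf, the leukocyte common antigen related receptor LAR, had 16.9, 14.2 and 7.41 CPM, both with library 3 the lowest. Ptpn3 had 8.94, 6.97 and 5.81 CPM. Ptpru stood the other way, with 1.48, 3.38 and 6.28 CPM, and library 3 held 4.24 times the level of library 1. Ptprh, a receptor of the gut epithelium, had 0, 7 and 2 counts. Alveolar and airway markers had their highest sums in library 1, and Ptprk, Ptprf, Ptpn14 and Ptpn3 were also highest there. The airway sum, most of it Scgb1a1 (13192, 2632 and 7641 CPM), was lower in library 2 than in library 3. Ptprf, Ptpn14 and Ptpn3 were higher in library 2 than in library 3. A link between these members and epithelial markers was not tested.

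Neuronal and endocrine phosphatases were the lowest group with a detectable level. Of 8 members, 3 reached 1 CPM and 1 reached 10 CPM. That one was Ptprd, a synapse-organising receptor of the LAR group, with 9.47, 12.1 and 19.4 CPM, highest in library 3. Ptpro, a receptor known from kidney podocytes and neurons, had 13.8, 3.70 and 6.16 CPM, and library 1 was 3.73 times library 2. Ptpn5, the striatal phosphatase STEP, had 1.69, 1.31 and 2.25 CPM. The vesicle proteins Ptprn and Ptprn2 had 22, 8 and 18 counts and 24, 12 and 9 counts. Ptprz1, a receptor of glia and neurons that binds pleiotrophin, had 18, 3 and 3 counts, 18 of them in library 1. Ptprr, a neuronal MAP kinase phosphatase, had 10, 0 and 6 counts, and Ptprt had 2, 3 and 8. Among nerve and Schwann cell markers 3 of 8 reached 1 CPM, led by Mbp at 88.2 ± 13.9 CPM. Ptprq, a receptor of the inner ear, had 2 counts, both in library 3, and Ptpn20, a phosphatase of the testis, had none, which allows up to 0.178 CPM in the shallowest library.

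Roles were then compared as shares of the members' summed CPM per kilobase of exon within each library. The 4 leukocyte genes held 55.5%, 60.8% and 58.9% (58.4 ± 2.70%), and 61.3 ± 2.20% per kilobase of coding sequence. The 9 cytosolic genes held 25.7 ± 0.416% and the 5 broad receptors 8.53 ± 0.282%. The 2 endothelial genes held 6.84%, 2.57% and 3.30%, with library 1 apart from the others. Epithelial and junction genes held 2.38 ± 0.293% and neuronal and endocrine genes 0.766 ± 0.282%.

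**Figure D3:**
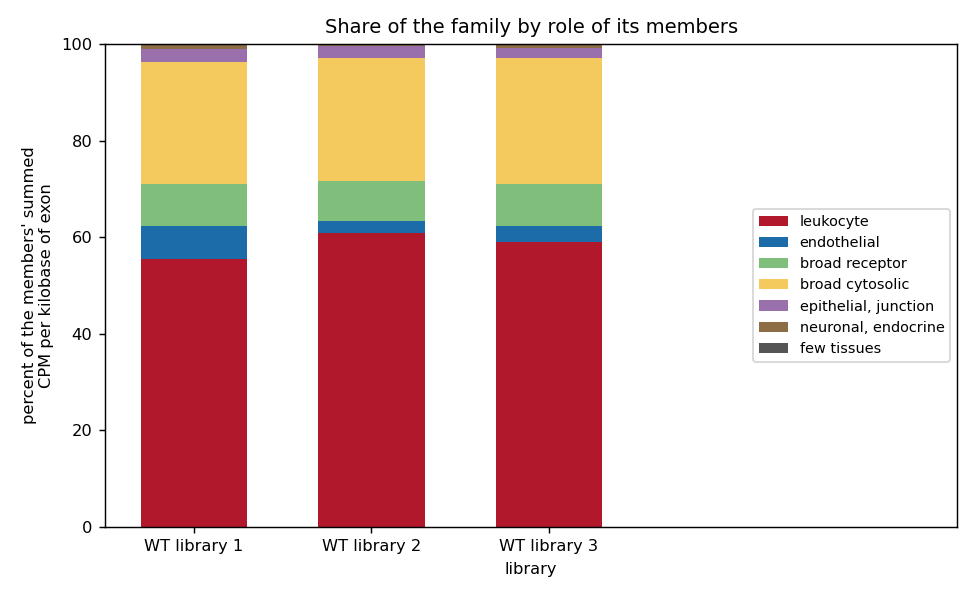
Share of each role in the members' summed CPM per kilobase of exon, in percent, for WT libraries 1, 2 and 3. Leukocyte phosphatases make up 55.5% to 60.8% of each bar, and the endothelial part is widest in library 1 at 6.84%.

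Per kilobase of exon the members ran in the order Ptprc, Ptpn6, Ptpn22, Ptpn1, Ptpn12, Ptpn2, Ptprj, Ptpn11, Ptprb and Ptpn23, followed by Ptpn7 and the rest. Neighbours whose library ranges did not overlap were Ptpn6 over Ptpn22, Ptpn22 over Ptpn1, Ptpn1 over Ptpn12, and Ptprj over Ptpn11. Compared within libraries, 6 of the 10 neighbouring pairs among these first 11 members had the same order in each of the 3 libraries, namely these 4, Ptprc over Ptpn6, and Ptpn23 over Ptpn7. The other 4 pairs changed order between libraries. The orders of Ptprj and Ptpn11 and of Ptpn23 and Ptpn7 were the opposite in all 3 libraries per kilobase of coding sequence, and Ptpn22 was then above Ptpn1 in 1 of 3 and below Ptpn6 in 2 of 3. By coding length the first were Ptprc, Ptpn6, Ptpn1 and Ptpn22. The largest moves between the 2 orders were those of Ptpn23, in place 10 by exon length and 16 by coding length, Ptpn7 (11 and 6), Ptpn12 (5 and 10) and Ptprb (9 and 14).

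**Figure D4:**
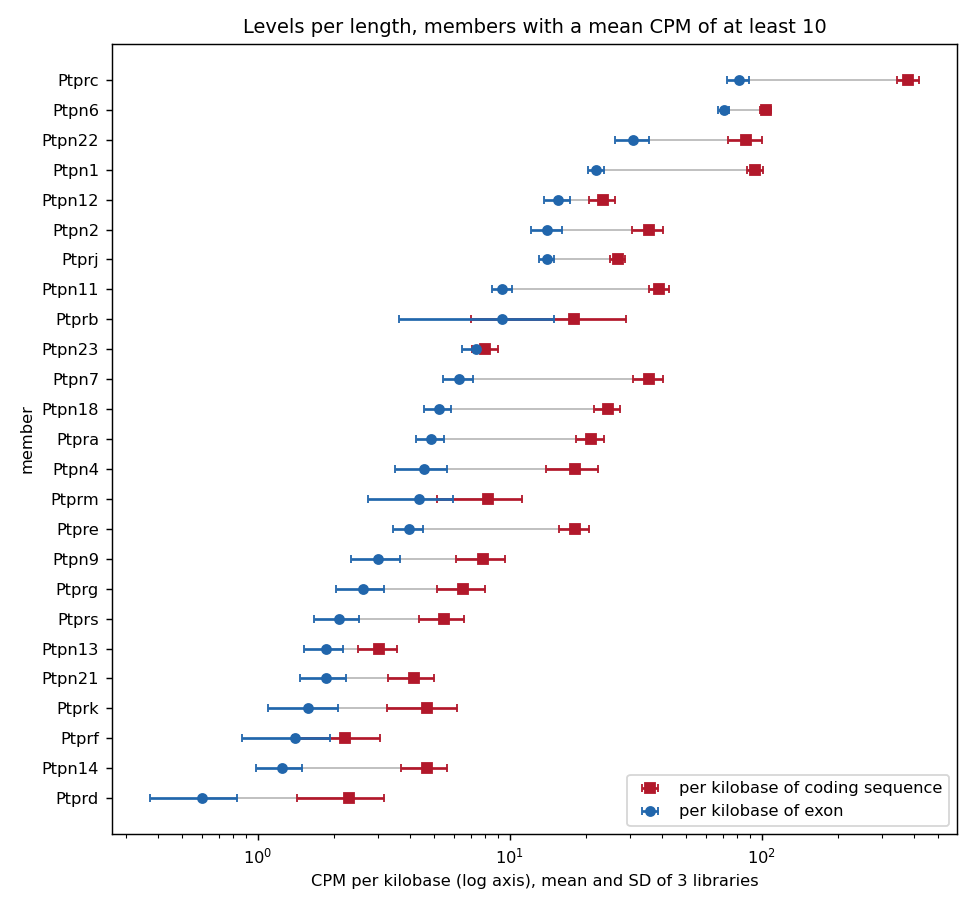
Mean level and SD over 3 WT libraries of the 25 members with at least 10 CPM, per kilobase of coding sequence (red squares) and per kilobase of exon (blue circles), on a log axis. Ptprc leads on both scales (381 and 80.8 CPM per kilobase), and the error bars of Ptprb are wide on both.

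Related members were set against each other by the log2 ratio of their counts per kilobase of exon in a library, where the size of the library cancels. The smallest p that an exact two-sided sign-flip test can give for 3 libraries is 0.25, so the ratios carry no test. Of 18 pairs, 15 had the same sign in each library. SHP-1 exceeded SHP-2: the ratio of Ptpn6 to Ptpn11 was 3.02, 3.02 and 2.71, on average 2.92 ± 0.18, or 7.56-fold, but 1.41 per kilobase of coding sequence and 1.5 with no length correction. Ptpn1 exceeded Ptpn2 by 0.65 ± 0.30, and by 1.41 per kilobase of coding sequence. Among PEST phosphatases, Ptpn22 exceeded the broadly expressed Ptpn12 by 0.98 ± 0.24 (1.88 by coding length), whereas Ptpn18 stood below Ptpn12 at -1.57 ± 0.34, a ratio that was 0.0626 per kilobase of coding sequence and so has no settled direction. Ptprc exceeded Ptprj by 2.52 ± 0.14 (3.82 by coding length), and Ptpn4 exceeded Ptpn3 by 2.19 ± 0.63 (2.77 by coding length and 2.83 with no length correction). Without changing sign, the mean moved by at least its SD between libraries in 8 of the 18 pairs by coding length and in 9 with no length correction, so the sizes of these ratios depend on the length used.

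In the group of MAP kinase phosphatases, Ptpn7 exceeded Ptpn5 by 4.38 ± 0.32 on the log2 scale (5.05 by coding length). Against Ptprr, Ptpn7 was 61.3-fold higher per kilobase of exon in library 1 (exact 95% interval 33.1 to 128) and 120.0-fold higher in library 3 (54.9 to 328), and at least 225-fold higher in library 2, where Ptprr had no count and 3 counts were taken as its limit. Ptprg had 633, 398 and 525 counts beside the 18, 3 and 3 of its relative Ptprz1, which gives 45.5-fold (28.6 to 77.3), 172-fold (58.3 to 836) and 226-fold (77.1 to 1102) per kilobase of exon. In both pairs the neuronal gene was the lower one in each library.

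Within the LAR group Ptprs exceeded Ptprd by 1.85 ± 0.32, and its ratio to Ptprf was -0.19, 0.55 and 1.56, without a common sign (mean 0.64 ± 0.88, and 1.36 by coding length). Ptprm exceeded its relative Ptprk by 1.44 ± 0.18 (0.78 by coding length), and both were highest in library 1, so their ratio was steadier than either level. Ptpru stood below Ptprk, at -3.33, -1.31 and -0.71. Ptpre and Ptpra were close, at -0.03, -0.54 and -0.30. The ratio of Ptprb to Ptprj was 0.11, -1.52 and -0.92, above 0 in library 1 only. Ptpro was below Ptprj at -3.79 ± 0.89, and Ptprn2 below Ptprn at -1.11 ± 0.78 (-0.0917 by coding length) with few counts for both. The ratio of Ptpn21 to Ptpn14 was -0.01, 0.55 and 1.19, and its mean of 0.58 ± 0.60 was within its SD of 0 and had the other sign, at -0.17, per kilobase of coding sequence.

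**Figure D5:**
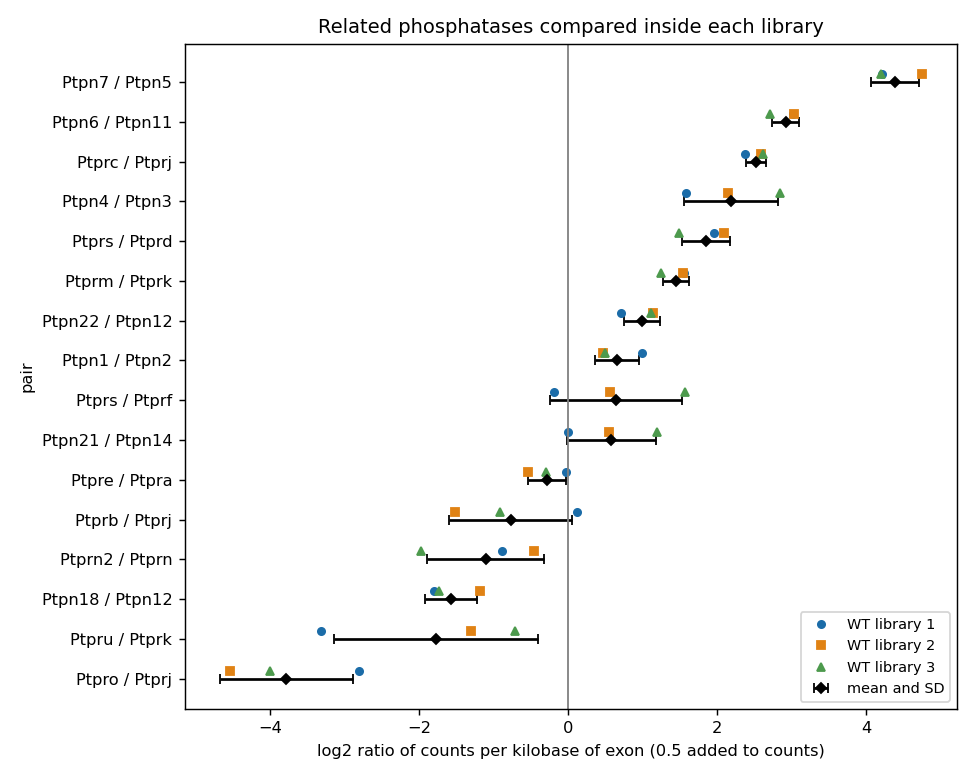
Log2 ratio of counts per kilobase of exon between related members, with 0.5 added to each count, for 16 of the 18 pairs in WT libraries 1, 2 and 3 (coloured symbols) with the mean and SD (black). Ratios of Ptpn6 to Ptpn11 and of Ptprc to Ptprj lie tightly above 0, and those of Ptprs to Ptprf, Ptpn21 to Ptpn14 and Ptprb to Ptprj cross it.

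Variation between libraries was then tested for each gene with at least 10 counts, using TMM-scaled library sizes and a chi-square test of homogeneity, with Benjamini-Hochberg adjustment over all genes tested. Of the 34 members tested, 30 (88.2%) differed between libraries beyond counting error at an adjusted p of at most 0.05, against 70.0% of all genes tested and 73.1% of nuclear protein-coding genes. The test detects smaller differences in genes with more counts, and members have more counts than most genes, so the 2 percentages are not alike in reach. The 4 members that did not pass were Ptpn11 (adjusted p = 0.38), Ptpn5 (0.247), Ptprn (0.0535) and Ptprt (0.120). Among the 29 members of at least 1 CPM, the median ratio of the highest to the lowest library was 1.48 and the median coefficient of variation 20.1%, against 1.42 and 18.4% for nuclear protein-coding genes of that level.

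Leaving out library 1 lowered the calls among members and also among all genes, from 70.0% to 38.2% of those tested. A test of 2 libraries also has less reach than a test of 3. Without library 1, 14 of 32 members tested differed between libraries 2 and 3, against 38.2% of all genes. Ptprb, Ptprc, Ptpn6 and Ptpn22 were among the 14, and Ptprm, with 30.3 and 30.2 CPM, was not (adjusted p = 0.258). Without library 2, 26 of 34 passed, against 53.4% of all genes. Without library 3, 23 of 33 passed, against 56.8%, and Ptprc (adjusted p = 0.0965) and Ptpn6 (0.298) were not among them, whereas Ptpn22 was (0.0279).

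Which library was highest depended on the scaling. Of the 29 members of at least 1 CPM, 10 were highest in library 1, 2 in library 2 and 17 in library 3 when scaled by library totals. With TMM or DESeq2 library sizes, alternatives added after the values were seen, these numbers were 13, 6 and 10. On the TMM scale Ptprc had 1431, 1455 and 1540.2 CPM, a 1.08-fold range, and Ptpn6 had 206, 212 and 176 CPM. Library 3 remained the highest for Ptprc, Ptpn22 and Ptpn7, and library 1 for Ptprb and Ptprm. Library 3 had the smallest share of microRNA counts and library 1 the largest, as given above. The mitochondrial genome took 11.7%, 10.5% and 13.6% of the counts in libraries 1, 2 and 3, with library 3 the highest. Whether either share bears on the scaling was not tested.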

How the data were processed

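Total RNA was extracted with a micro column kit with DNase treatment and made into stranded SMARTer libraries, per the labels' protocols. Raw read counts for each gene, as whole numbers, are what the authors deposited. STAR 2.6.1d, featureCounts 1.6.3, Trimmomatic 0.38, FastQC and DESeq2 1.18.1 were used, per the submitters' processing notes, which give no order. The builds named there are human although the gene IDs are mouse, and all 37 member IDs were in GENCODE M21 (GRCm38), 31 with identical coordinates. Columns named as controls were taken as WT libraries by number, WT being the sole group.

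Computed here were CPM, CPM per kilobase of GENCODE M21 exon or coding length, and log2 ratios with 0.5 added to counts. TMM sizes came from edgeR 4.0.16 (R 4.3.3) and alternative size factors from DESeq2 1.42.0. The chi-square test was checked on simulated data. Sequence shared with other genes was measured in words of 50 bases. Every member was named, and of each list the 3 highest genes and the lowest, apart from some that are not reported here. Lck, Ptprcap, Cdh5, Tek and Cnn1 were added for context. In the list of other tyrosine phosphatases, 1 of 15 symbols had no match. Alternatives were other scalings, lengths, added counts and filters, and each library left out. The members, lists and pairs were chosen with earlier results of these data known.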

Additional observations from a re-analysis of the deposited data

How the results depend on the processing

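No paired analysis was possible because the libraries form 1 group. Of the alternatives run, 119 values stayed within the spread or within 1.5 times, 26 moved by more and 3 reversed. For the ratios, the median and the share of Ptprc, leaving out 1 of 3 libraries cannot shift the mean by its SD. Those values could only stay or change sign, so their part of the 119 is no sign of stability. TMM and DESeq2 scaling left the counts of members at 1 and 10 CPM at 29 and 25. Without each library in turn these were 29 to 30 and 25 to 25, the median was 4.58 to 4.68 log2(CPM + 1), the share of Ptprc per kilobase of exon 24.3% to 25.8%, and members called variable 14 to 26 of 32 to 34. Among the 9 members that overlap no other listed gene, 6 reached 1 CPM, 5 reached 10 CPM and the median was 3.95. A count out of 9 members cannot come within 1.5 times of 29 or 25. These counts at 1 and 10 CPM could therefore only fall among the 26, which is no sign of instability. Over members of at least 1 CPM the median was 5.15. The share of Ptprc was 50.7% with no length and 38.4% with coding length. Ratios that changed sign were Ptpn18 to Ptpn12 (0.0626 with coding length) and Ptpn21 to Ptpn14 (-0.19 with no length, -0.17 with coding length). Members highest in library 3 numbered 10 with TMM and 10 with DESeq2 scaling, against 17 by library totals, an alternative chosen after seeing the data. The cause of these changes was not tested. A limit of 3 counts per library, or 0.159 to 0.178 CPM, sets what could be detected.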

Other observations

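Ptprv, which the table lists as a processed transcript and not as protein-coding, had 131, 19 and 57 counts in WT libraries 1, 2 and 3, or 6.93, 1.04 and 3.38 CPM. Library 1 was the highest and library 2 the lowest. The gene lies next to Ptpn7, which was highest in library 3 (33.4, 37.8 and 43.9 CPM). Inside Ptpre, the antisense gene 5830432E09Rik had 6.33 ± 0.821 CPM and shares 2.05% of the exon bases of Ptpre. Inside Ptprj, the antisense gene 4933423P22Rik had 4.20 ± 0.971 CPM. Of the partners and ligands of the LAR group, 9 of 13 reached 1 CPM and 5 reached 10 CPM, led by Thbs1 (254 ± 56.0 CPM), the liprin Ppfia1 (85.3 ± 6.98 CPM) and Trio (76.5 ± 11.7 CPM), with Ppfia2 the lowest at 0.0769 ± 0.0913 CPM.

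For each list of cell type markers, the highest genes and the lowest that are reported are given by their mean CPM over the 3 WT libraries. The highest lymphocyte markers were Il7r (269), Cd79a (173) and Cd2 (165), and Klrd1 was the lowest (33.5). The highest myeloid markers were Lyz2 (376), Csf1r (53.5) and Itgax (33.7), and Marco was the lowest (0.963). The highest endothelial markers were Pecam1 (206), Cdh5 (176) and Kdr (98.7), and Emcn was the lowest (6.34). The highest alveolar markers were Sftpc (627), Sftpa1 (252) and Sftpb (99.6), and Aqp5 was the lowest (6.38). The highest airway markers were Scgb1a1 (7822), Scgb3a2 (222) and Cyp2f2 (83.1), and Krt5 was the lowest (0.0379). The highest fibroblast markers were Gsn (762), Col3a1 (245) and Col1a1 (153), and Tcf21 was the lowest (5.24). The highest smooth muscle markers were Mylk (64.4), Myh11 (24.3) and Tagln (18.9), and Cnn1 was the lowest (0.226). The highest pericyte markers were Abcc9 (39.1), Pdgfrb (22.4) and Kcnj8 (21.7), and Higd1b was the lowest (1.02). The highest markers of red cells and platelets were Hbb-bs (531), Hba-a1 (441) and Hba-a2 (428), and Ppbp was the lowest (0.0198). Markers of nerve and Schwann cells included Mbp (88.2) and S100b (1.09), and Sox10 was the lowest (0.0742).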
